A study of Apostichopus japonicus with 9 samples.

Results

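The transcripts described here had higher read counts in the sea cucumber intestine at both salinity extremes than in control sea water. They are 100 gene models of 27269 with reads in the series, chosen from the measured values and not from gene names or functions. Counts were divided by a size factor per library, the median ratio of its counts to the mean library over the 12361 genes with reads in all 9 libraries, and the result is called a scaled count here. A gene had to average 10 or more scaled counts, its highest control library had to lie below the lowest of the 6 other libraries, and its means at high and low salinity, each with 1 added, had to lie within 2.5-fold of each other. Of 12545 genes with a mean of 10 or more, 202 met all of this. The 100 with the largest ratio of the lowest salinity-stress library to the highest control library, 1 added to each, form the set.

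The series holds 9 RNA-seq libraries of intestine from the sea cucumber Apostichopus japonicus, with 3 libraries in each of 3 groups. SD40 animals were brought to concentrated sea water (labelled 40), SD20 animals to diluted sea water (labelled 20), and SD30 animals stayed in control sea water (labelled 30). The labels write these salinities with a percent sign, and the series' design text writes them both with and without one. All animals had been kept at 15 °C and fed daily for a week beforehand, salinity was changed by 2.5 every 6 h, and 20 animals were assigned to each group. Each library is a pool of RNA from 3 animals, so variation between single animals is not seen. Nothing in the labels says that the pools came from separate tanks, so the spread between libraries may be partly technical. The time at the final salinity, the age of the animals and their genotype were not given in the sources used here.

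Sea cucumbers are echinoderms and osmoconformers: the salt content of their coelomic fluid follows that of the sea water, and their cells must adjust to the change. Cells of such animals are known to adjust their volume with inorganic ions and with organic osmolytes such as free amino acids, and to use chaperones against protein damage. Both dilution and concentration of the medium are therefore a load on the same tissue, in opposite directions. Whether any of the 100 transcripts belongs to one of these systems cannot be said here. Their AJAP identifiers are not paired with gene names in the files, and of the 27269 identifiers 0 match an entry of RefSeq's gene table for assembly ASM3797524v1. For the same reason no marker of intestinal, muscle or coelomic cells could be checked against the labelled tissue, no pathway list was matched and no sequence is shown. In bulk tissue, more cells of a type and more RNA per cell cannot be told apart.

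Because the members were selected on these 9 libraries, their separation from the controls is a description and is given without a test. The text names the members with the largest selection ratio, the most abundant, the longest and shortest, those leaning most to one extreme, the one with no control read and those at the edge of the list. A few others, chosen after their values were seen, are marked as such.

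Median levels of the set were about alike at both extremes and lower in the controls. The selection required the lower controls, and its 2.5-fold limit favours the likeness of the extremes. The median scaled count over the 100 members was 30.4, 22.3 and 26.3 in the SD40 libraries, 24.9, 26.7 and 35.0 in the SD20 libraries, and 5.59, 8.84 and 9.79 in the SD30 libraries. Relative to the mean of its 3 control libraries, a member was 3.23-fold higher in SD40 at the median (1.48-fold to 33.2-fold) and 3.61-fold higher in SD20 (1.43-fold to 46.9-fold), over the 99 members with at least 1 control read. With 1 added to both means, 87 members were at least 2-fold and 32 at least 4-fold higher in SD40 than in SD30, and 83 and 38 were so in SD20. The median log2 ratio on this scale was 1.57 for SD40 and 1.81 for SD20 over the members, against 0.02 and -0.06 over all 12545 genes. Together the 100 transcripts took 0.152% ± 0.0292 of all estimated counts in SD40, 0.220% ± 0.0580 in SD20 and 0.0381% ± 0.0261 in SD30 (SD, n = 3 each). These shares refer to library totals and not to scaled counts, so their gaps are not the set's alone. With libraries scaled to their totals, the median fitted log2 fold change of all genes tested against SD30 was 0.60 in SD40 and 0.92 in SD20.

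**Figure D1:**
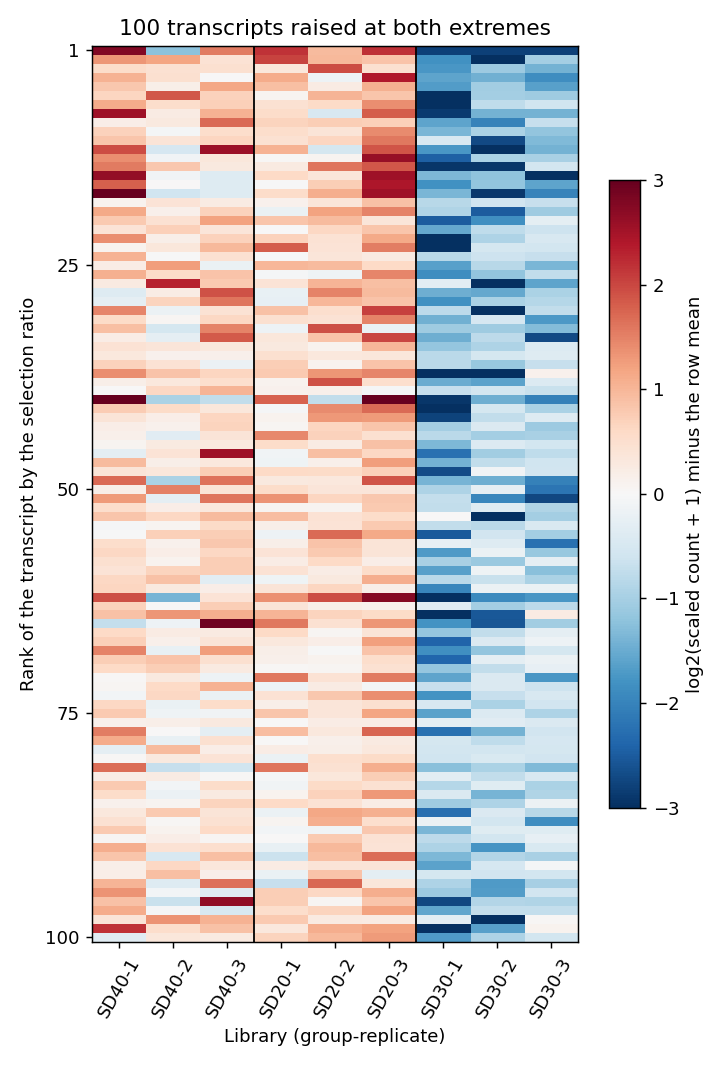
Each row is 1 of the 100 transcripts, ordered by the selection ratio from the top, and each column is a library, in the groups SD40, SD20 and SD30 from left to right. Colour gives log2(scaled count + 1) minus the mean of the row, with values beyond 3 in either direction shown in the end colour. The SD30 columns are the lowest of every row by selection, while among the other columns SD20-3 and SD40-1 hold many of the darkest red cells.

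Few reads stood behind most of these values, most of all in the controls. The median estimated count of a member was 40.9, 23.0 and 22.4 in the SD40 libraries, 33, 37.7 and 54.5 in the SD20 libraries, and 3, 5 and 11.3 in the SD30 libraries. Library totals did not show this difference, at 2834168 to 4034952 counts in SD40, 3442227 to 3728855 in SD20 and 3340018 to 4060892 in SD30. Size factors were 1.34, 1.03 and 0.850 in SD40, 1.32, 1.41 and 1.55 in SD20, and 0.537, 0.566 and 1.15 in SD30. They set apart SD30 replicates 1 and 2, while SD30 replicate 3 lay above SD40 replicates 2 and 3. A single read was thus worth 1.86 and 1.77 scaled counts in SD30 replicates 1 and 2, and 0.644 to 1.18 in the SD20 and SD40 libraries. In SD30 replicate 1 a count of 0 allows up to 5.59 scaled counts, a limit of 3 reads that covers counting error only.

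**Figure D2:**
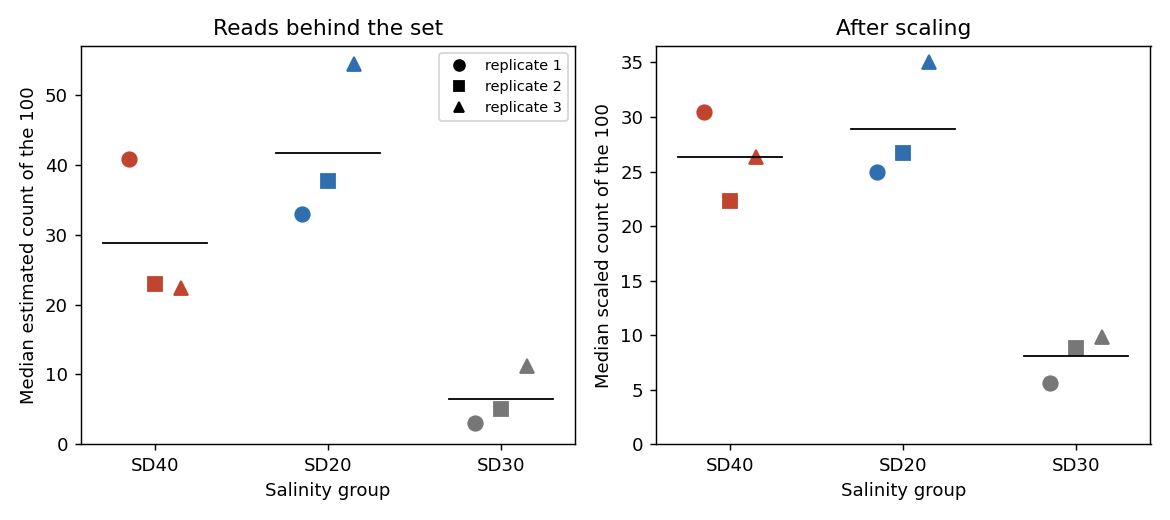
The left panel gives the median estimated count of the 100 transcripts in each library, the right panel the median scaled count, with the groups SD40, SD20 and SD30 on the horizontal axis, a symbol for each replicate and a line at the mean of the 3 libraries. In the left panel the SD30 libraries stand at 3, 5 and 11.3 reads, and in the right panel at 5.59, 8.84 and 9.79 scaled counts, below all 6 other libraries in both.

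The members were chosen for separation from the controls, so the next counts describe reads and support nothing. Exact 95% Poisson intervals of all 3 SD30 libraries lay below those of all 6 other libraries for 2 members, AJAP15502 and AJAP10672, the 2 most abundant of the set (background 0.0319% of 12545 genes). When the reads of each group were summed, the SD30 interval lay below both other intervals for 86 of the 100 (background 13.1%). These intervals leave out the spread between libraries.

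The gene-wise test of the whole table called none of the members. In edgeR's quasi-likelihood test with Benjamini-Hochberg adjustment over 14191 genes, 0 members passed in SD40 against SD30 (background 0% of all genes) and 0 in SD20 against SD30 (background 0%). An unadjusted p under 0.05 with a higher level was found for 78 members in SD40 (background 3.47%) and for 77 in SD20 (background 5.57%). DESeq2 called 1 member higher in SD40 (background 0.106%) and 19 higher in SD20 (background 0.606%). The selection used these same contrasts, so nothing is read from these counts. The 2 contrasts also share the 3 control libraries. Fitted log2 fold changes had a median of 1.67 in SD40 (0.62 to 7.65) and 1.91 in SD20 (0.55 to 7.73). For the member with no control read the fitted value is not a bound, and with that member at its bound the medians were 1.67 and 1.91.

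AJAP12557, a gene model of 960 bases, had the largest selection ratio and was the only member without a read in any SD30 library. Its estimated counts were 63.0, 2 and 16.4 in SD40 and 39.7, 17.4 and 47.9 in SD20, with 0 reads in each SD30 library. Set against a floor of 3 reads over the whole control group, or 1.33 scaled counts, its mean was at least 17.1-fold higher in SD40 and at least 18.3-fold higher in SD20. These bounds cover counting error in the controls only and leave out the spread between libraries. Without SD40 replicate 1 the bound for SD40 was 7.99-fold, and without SD30 replicate 3 the bounds were 8.36-fold in SD40 and 8.96-fold in SD20. Its SD40 replicate 2, at 1.94 scaled counts from 2 reads, lies below the 5.59 scaled counts that a count of 0 allows in SD30 replicate 1.

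AJAP23175, of 3153 bases, came next. It stood at 38.4, 34.9 and 20.3 scaled counts in SD40, 63.2, 30.1 and 27.4 in SD20 and 3.50, 0 and 6.74 in SD30. Its lowest extreme library, SD40 replicate 3, stood at 20.3 and its highest control library at 6.74. Fitted log2 fold changes against SD30 were 3.01 (SE 0.83) in SD40 and 3.36 (SE 0.84) in SD20.

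AJAP21955 combined even SD40 values with a single high SD20 library. Its scaled counts were 13.2, 12.4 and 12.5 in the SD40 libraries, 11.3, 36.3 and 12.4 in the SD20 libraries and 1.86, 3.54 and 2.61 in the SD30 libraries. The means were 12.7 ± 0.430 in SD40, 20.0 ± 14.1 in SD20 and 2.67 ± 0.838 in SD30 (SD, n = 3 each), and SD20 replicate 2 carried most of the SD20 spread.

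AJAP17474 was the third of the 100 in how far it leaned to low salinity, with an SD40 mean 0.521 times its SD20 mean. Its scaled counts were 38.5, 25.8 and 18.4 in the SD40 libraries, 40.5, 16.4 and 102 in the SD20 libraries and 5.48, 6.10 and 4.32 in the SD30 libraries. SD20 replicate 3 alone reached over 100 scaled counts, and the SD20 libraries lay on both sides of the SD40 libraries.

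AJAP15405 stood at about the same level at both extremes. Its scaled counts were 17.9, 11.2 and 23.1 in the SD40 libraries, 19.4, 11.9 and 21.8 in the SD20 libraries and 2.39, 4.28 and 2.51 in the SD30 libraries, with means of 17.4 ± 5.94 in SD40, 17.7 ± 5.16 in SD20 and 3.06 ± 1.06 in SD30 (SD, n = 3 each). The log2 fold change was 2.71 (SE 0.65) in SD40 and 2.72 (SE 0.65) in SD20, and its SD40 mean was 0.987 times its SD20 mean.

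The other 3 leading members had few control reads, and none in SD30 replicate 1, the control library with the smallest size factor. AJAP07941 had 16.3, 30.4 and 10.7 estimated counts in SD40, 10.4, 22.6 and 21.7 in SD20 and 0, 1.77 and 3.44 in SD30. AJAP00913 had 30, 15 and 14 in SD40, 18, 21 and 42 in SD20 and 0, 3 and 7 in SD30. AJAP25902, a short model of 468 bases, had 56, 8 and 12 counts in SD40, 13, 6 and 39 in SD20 and 0, 1 and 2 in SD30. As a ratio of means it was 18.1-fold higher in SD40 and 11.2-fold higher in SD20. Its reads summed over a group, 3 of them in the controls, gave ratios of 17.7 in SD40 (95% exact interval 5.83 to 87.7) and 10.2 in SD20 (3.31 to 50.7), by counting error only. Without SD40 replicate 1 the ratio of means for SD40 was 9.35, and without SD20 replicate 3 that for SD20 was 6.02. Without SD30 replicate 1 they were 12.1 and 7.45.

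**Figure D3:**
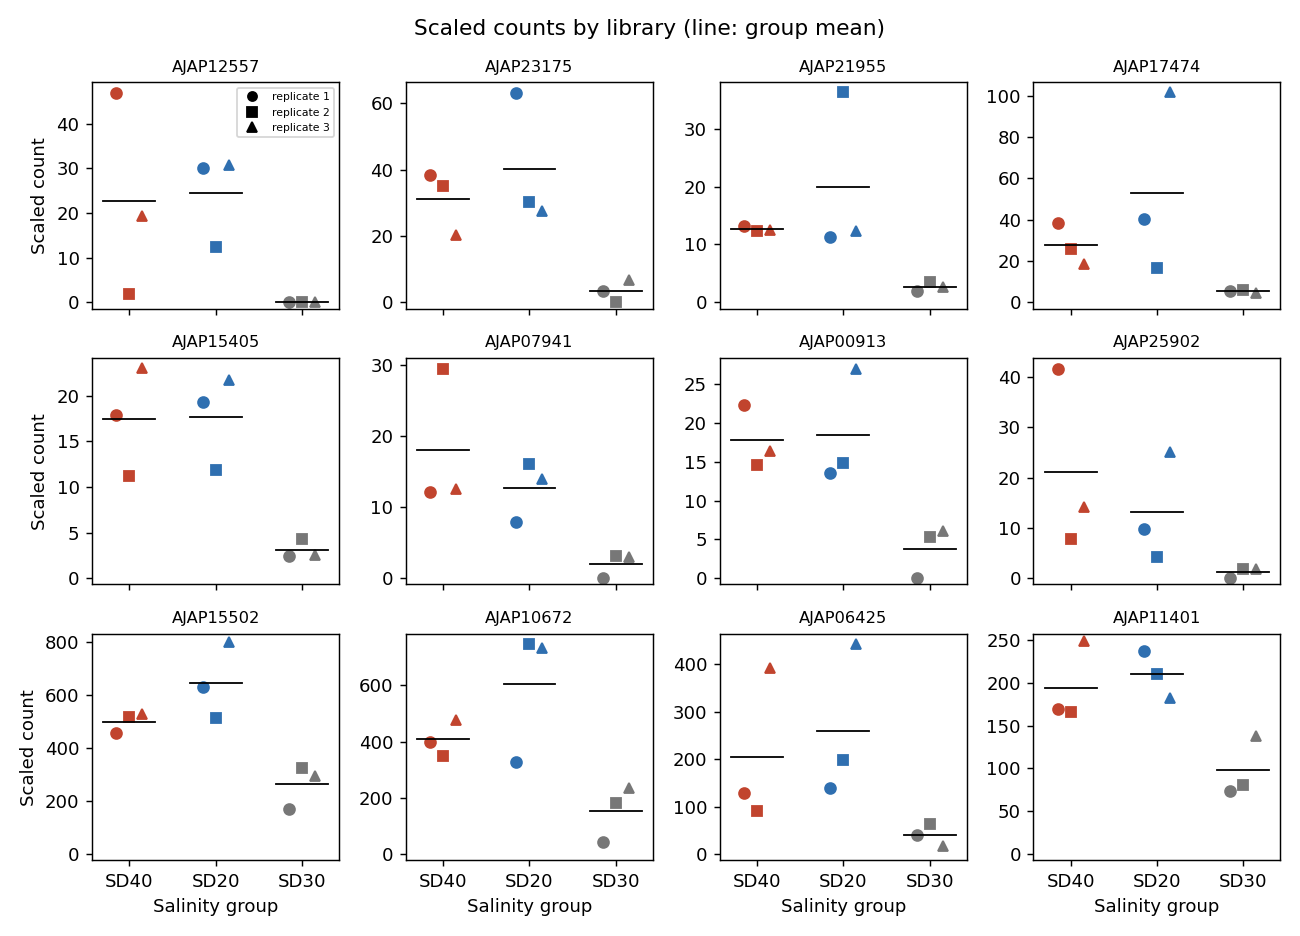
Scaled counts of 12 transcripts in each library, with the groups SD40, SD20 and SD30 from left to right in each panel, a symbol for each replicate and a line at the mean of 3 libraries. The first 8 panels are the transcripts with the largest selection ratio and the last 4 are the most abundant ones. Vertical scales differ between panels, and in AJAP12557 all 3 SD30 points lie at 0.

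Most members had some reads in every control library. Of the 100 members, 81 had reads in all 3 SD30 libraries, 16 lacked them in 1, 2 lacked them in 2 and 1 lacked them in all 3. None of the members lacked a read in any of the 6 SD20 and SD40 libraries, which follows from the selection. Over the 3 SD30 libraries, 20 members had under 10 reads and the median was 21.2, against 90 over the SD40 libraries and 131.5 over the SD20 libraries. Members without a read numbered 12 in SD30 replicate 1, 10 in replicate 2 and 1 in replicate 3, in the order of their size factors.

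The 2 members lacking reads in 2 control libraries were AJAP21000 and AJAP05136, named after their values were seen. AJAP21000 had 28.4, 12.5 and 7.01 estimated counts in SD40, 10.8, 31.1 and 41.3 in SD20 and 0, 0 and 4.78 in SD30. AJAP05136 had 33, 17 and 12 in SD40, 21, 33 and 40 in SD20 and 0, 0 and 11 in SD30. In both, the only control reads were in SD30 replicate 3, whose size factor was the largest of the 3.

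AJAP15502, a long model of 4242 bases with whole counts in every library, had the highest mean of the set. Its estimated counts were 610, 532 and 447 in SD40, 830, 722 and 1238 in SD20 and 90, 184 and 338 in SD30. In scaled counts it averaged 499 ± 38.8 in SD40, 645 ± 143 in SD20 and 262 ± 83.4 in SD30 (SD, n = 3 each). Log2 fold changes against SD30 were 0.97 (SE 0.40) in SD40 and 1.33 (SE 0.40) in SD20.

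AJAP10672, of 1332 bases, had the highest FPKM, a level per length. In the authors' FPKM it averaged 93.9 ± 15.5 in SD40, 179 ± 73.9 in SD20 and 28.0 ± 28.4 in SD30 (SD, n = 3 each). Its scaled counts were 399.7, 347 and 478 in the SD40 libraries, 329, 748 and 734 in the SD20 libraries and 43.8, 181 and 233 in the SD30 libraries. SD30 replicate 1 was lower than the other 2 controls, and SD20 replicates 2 and 3 stood above replicate 1 and above all SD40 libraries.

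AJAP06425, of 820 bases, had the largest folds of the 6 most abundant. It stood at 129, 91.2 and 393 in the SD40 libraries, 139, 199 and 443 in the SD20 libraries and 39.0, 63.2 and 16.0 in the SD30 libraries, all in scaled counts. Replicate 3 was the highest library in both SD40 and SD20, and the lowest in SD30. Its log2 fold change was 2.42 (SE 0.75) in SD40 and 2.79 (SE 0.76) in SD20.

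Of the 3 other abundant members, AJAP11401 averaged 194 ± 46.7 scaled counts in SD40, 210.2 ± 27.4 in SD20 and 97.7 ± 35.2 in SD30. AJAP09925 averaged 196 ± 72.6 in SD40, 154 ± 20.4 in SD20 and 80.0 ± 5.83 in SD30, with its controls within 73.6 to 84.9 and SD40 replicate 1 well above the other SD40 libraries at 274. AJAP08502 averaged 152 ± 12.2 in SD40, 175 ± 46.8 in SD20 and 94.7 ± 14.5 in SD30 (SD, n = 3 each). Of the 100 members, 94 averaged under 100 scaled counts, against 77.7% of all 12545 genes, and the median was 22.6, against 37.2.

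High and low salinity were then set side by side within the set, where the selection allows at most a 2.5-fold difference. SD40 means were higher than SD20 means for 42 members and lower for 58, and 45 members lay within 1.2-fold. Beyond 1.5-fold, 7 members leaned to SD40 and 14 to SD20. In SD40 against SD20, edgeR's quasi-likelihood test called 0 of the 100 (background 0.00705% of 14191 genes), 0 had an unadjusted p under 0.05 (background 6.44%) and DESeq2 called 0 (background 0.543%). Every SD40 library lay above every SD20 library for 0 members (background 6.96%), and every SD20 library lay above every SD40 library for 4 (background 6.39%). The 2.5-fold limit of the selection favours such low counts. The median fitted log2 fold change was -0.05 over the members and 0.04 over all genes tested. With libraries scaled to their totals the medians were -0.42 and -0.33, as a change of scaling moves the members and all genes together.

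**Figure D4:**
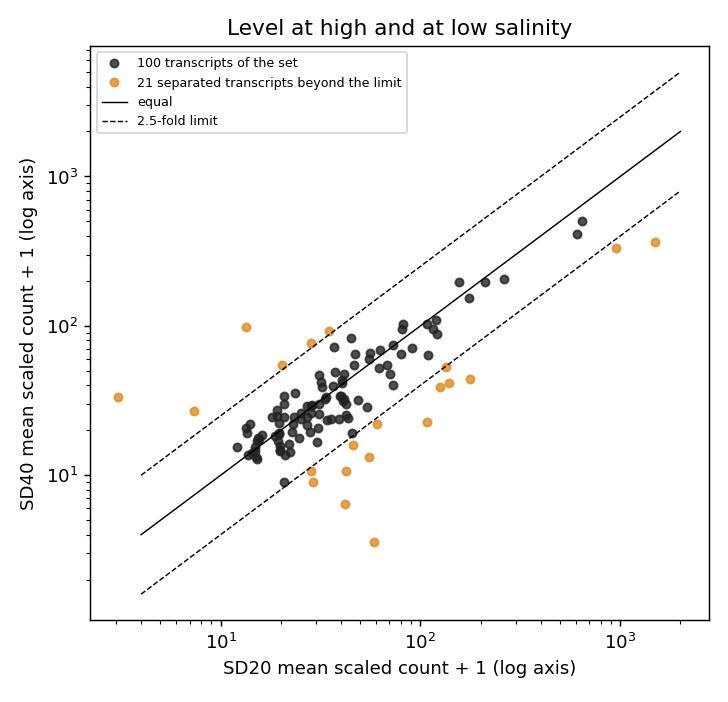
Mean scaled count + 1 in SD40 (vertical log axis) against that in SD20 (horizontal log axis) for the 100 transcripts of the set and for the 21 transcripts that also lay above all controls but beyond the 2.5-fold limit (dashed lines). Of the 21, 15 lie below the lower dashed line, toward SD20, and 6 above the upper one, toward SD40.

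In the 3 members that leaned most to SD40, replicate 3 was the highest SD40 library. AJAP08491 stood at 44.2, 14.5 and 155 in the SD40 libraries, 39.9, 24.6 and 43.0 in the SD20 libraries and 2.70, 12.4 and 12.2 in the SD30 libraries, in scaled counts, and its SD40 mean was 1.99 times its SD20 mean. AJAP15082 stood at 24.6, 40.7 and 179.9 in SD40 and 28.0, 57.4 and 47.0 in SD20, with 5.59, 14.1 and 17.4 in SD30. AJAP08803 stood at 36.5, 5.82 and 56.4 in SD40 and 18.9, 5.67 and 34.8 in SD20, with 1.86, 0 and 2.61 in SD30. In each of the 3 the SD40 and SD20 libraries overlapped.

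Toward SD20 leaned AJAP05679 and AJAP06362, next to AJAP17474. AJAP05679 stood at 7.77, 9.51 and 6.73 in the SD40 libraries, 24.5, 10.5 and 24.2 in the SD20 libraries and 1.86, 5.30 and 1.53 in the SD30 libraries in scaled counts, and its SD20 mean was 2.47 times its SD40 mean. All 3 SD20 libraries lay above all 3 SD40 libraries in this transcript. AJAP06362 stood at 38.5, 2.91 and 12.8 in the SD40 libraries, 25.7, 39.3 and 68.3 in the SD20 libraries and 0, 1.77 and 2.07 in the SD30 libraries, and its SD40 replicate 1 lay within the SD20 range.

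Besides AJAP05679, the members with all SD20 libraries above all SD40 libraries were AJAP14221, AJAP17207 and AJAP25086. AJAP14221, named after its values were seen, stood at 40.9, 29.1 and 48.2 in the SD40 libraries, 103, 60.3 and 52.1 in the SD20 libraries and 20.5, 17.7 and 18.3 in the SD30 libraries in scaled counts. Its controls were tight, and the 3 groups were separated with SD40 between the others. AJAP17207, the last member of the list, likewise had SD40 in the middle, at 11.2, 18.4 and 17.6 in the SD40 libraries, 23.4, 29.1 and 36.0 in the SD20 libraries and 3.73, 7.07 and 9.56 in the SD30 libraries.

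Besides the 202 genes, 21 transcripts lay above all controls in all 6 other libraries but beyond the 2.5-fold limit, so that 223 of 12545 genes had this separation (background 1.78%). AJAP09474 and AJAP02445, with the largest ratios among the 21 and named after their values were seen, would have led the list. AJAP09474 stood at 358, 224 and 515 in the SD40 libraries, 333, 1858 and 2295 in the SD20 libraries and 11.8, 61.8 and 60.9 in the SD30 libraries in scaled counts. AJAP02445 stood at 139.9, 234 and 621 in the SD40 libraries, 188, 1638 and 1034 in the SD20 libraries and 14.9, 44.2 and 43.5 in the SD30 libraries. Both were set aside because their SD20 means were 4.09 and 2.88 times their SD40 means.

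Spread within groups differed widely from member to member. The median ratio of the highest to the lowest library of a group, 1 added to each, was 1.76 in SD40, 1.86 in SD20 and 2.31 in SD30, against 2.65, 2.07 and 2.68 over all 12545 genes. A selection that needs separated groups favours low spread. At 5-fold or more were 11 members in SD40 (background 26.4%), 7 in SD20 (background 15.9%) and 15 in SD30 (background 25.7%).

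AJAP13165, named after its values were seen, had the widest spread in SD40 and SD20. Its estimated counts were 109, 3 and 3 in SD40, 33, 5 and 148 in SD20 and 0, 1 and 1 in SD30. SD40 replicate 1 and SD20 replicate 3 were high, and the lowest extreme libraries had 3 to 5 reads. Its ratios of means to the control, 33.2 in SD40 and 46.9 in SD20, were the highest of the 99 members with a control read. Without SD40 replicate 1 the ratio for SD40 was 3.66, and without SD20 replicate 3 that for SD20 was 16.2. Without SD30 replicate 2 the ratios were 67.2 in SD40 and 94.9 in SD20, and without SD30 replicate 1 they were 22.1 and 31.3. Its reads summed over a group, which weight each library by its size factor, gave 40.2 in SD40 (95% exact interval 10.9 to 336) and 48.9 in SD20 (13.3 to 406) from 2 control reads, by counting error only.

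AJAP03229 and AJAP25086, named after their values were seen, stood at the other end. They were the 2 members with under 1.5-fold spread in every group, against 1.28% of all 12545 genes. AJAP03229 stood at 27.5, 28.1 and 30.6 in the SD40 libraries, 24.9, 29.1 and 29.0 in the SD20 libraries and 20.5, 19.4 and 18.3 in the SD30 libraries in scaled counts. AJAP25086 stood at 13.4, 11.6 and 11.8 in the SD40 libraries, 15.1, 13.5 and 13.5 in the SD20 libraries and 5.59, 7.07 and 7.83 in the SD30 libraries. The log2 fold changes against SD30 were 0.62 (SE 0.41) in SD40 and 0.55 (SE 0.41) in SD20 for AJAP03229. For AJAP25086 they were 0.87 (SE 0.55) in SD40 and 1.05 (SE 0.55) in SD20.

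The highest library of a group was not the same for all members. SD20 replicate 3 was the highest SD20 library for 56 members, replicate 2 for 28 and replicate 1 for 16. SD40 replicate 1 was the highest SD40 library for 45, replicate 3 for 35 and replicate 2 for 20. Both SD40 replicate 1 and SD20 replicate 3 were highest for 35 members. The shares over all genes are not given here, so these counts are not read as particular to the set. Among the controls, replicate 3 was highest for 42 members, replicate 2 for 40 and replicate 1 for 18. The lowest of the 6 extreme libraries, which set the selection ratio, was SD40 replicate 2 for 33 members and SD20 replicate 1 for 24.

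Deviations of the members from their group means, on the scale log2(scaled count + 1), were weakly alike. Their mean pairwise Pearson correlation over the 9 libraries was 0.148, against 0.00 (2.47e-05) for all 12545 genes, and 63.8% of the 4950 pairs were positive. This is a description without a test, and the points share library depth and scaling. The scaling centres the deviations of all genes, which holds their correlation near 0. The gap between the members and all genes is therefore not read as a likeness particular to the set. The median deviation of the members was 0.14, -0.24 and 0.01 in SD40, -0.25, -0.06 and 0.29 in SD20, and -0.23, 0.14 and 0.30 in SD30. Over all genes it stayed between -0.01 and 0.02 in every library, which the scaling brings about. SD40 replicate 1 and SD20 replicate 3 also had reads for the most genes in their groups, 22129 and 22747, as did SD30 replicate 3 with 20233. The part of this in the correlation was not tested.

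Long gene models were frequent in the set. The median length was 1174.5 bases, against 1071 over all 12545 genes, and 30 of the 100 members exceeded 2000 bases, against 16.4% of all genes. Of all 202 genes that met the selection, 52 exceeded that length (25.7%), while of the 258 genes that met the mirror rule, lower at both extremes than in every control, 28 did (10.9%). Over all 12545 genes the longer ones had higher ratios to the control: above 2000 bases the median log2 ratio of means was 0.19 in SD40 and 0.36 in SD20, and up to 2000 bases it was -0.00 (-0.00448) and -0.14. Spearman's rho between length and this ratio was 0.0759 for SD40 and 0.179 for SD20, a description across genes, which are not independent replicates. Between length and a library's deviation from its group mean, rho was 0.262, -0.176 and -0.130 in the SD40 libraries. It was 0.0375, -0.175 and 0.153 in the SD20 libraries and -0.0435, -0.0437 and 0.0887 in the SD30 libraries. Libraries of the same group thus differed in this trend as well. The part of length in the members' levels was not tested.

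Within the set, the longer members had the lower median ratios. The 30 members above 2000 bases had a median log2 ratio of 1.33 in SD40 and 1.77 in SD20, and the 70 shorter ones had 1.67 and 1.84. All of these lay within the members' quartiles, 1.16 to 2.15 in SD40 and 1.19 to 2.25 in SD20. The members were selected on these levels, so the difference is a description and nothing is read from it. The longest member was AJAP12808, of 5199 bases, at 53.1, 86.6 and 49.2 in the SD40 libraries, 76.1, 100.2 and 149 in the SD20 libraries and 15.5, 34.4 and 40.1 in the SD30 libraries in scaled counts. AJAP02907, of 4932 bases, had 54, 28 and 27 reads in SD40, 40, 39 and 90 in SD20 and 2, 10 and 25 in SD30. AJAP23603, of 4818 bases, had 23, 6 and 23 reads in SD40, 6, 40 and 16 in SD20 and 2, 1 and 4 in SD30. Its lowest SD20 value, from 6 reads, was 4.54 scaled counts, next to 3.73 in the highest control.

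The 3 shortest members had whole counts in all libraries. AJAP15203, of 234 bases, had 25, 30 and 33 reads in SD40, 27, 29 and 28 in SD20 and 6, 7 and 13 in SD30. AJAP24424, of 303 bases, had 24, 22 and 20 in SD40, 20, 35 and 41 in SD20 and 6, 7 and 13 in SD30. For both, the intervals of the summed reads overlapped between the control and at least 1 extreme. AJAP23811, of 399 bases, had 39, 58 and 93 in SD40, 39, 100 and 101 in SD20 and 5, 10 and 22 in SD30, and its SD30 interval lay below both others.

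Whole counts in every library were found for 52 members and for 43.7% of all 12545 genes. Fractions of a read can come from sharing a read among similar models, so the levels of the 48 other members are uncertain where near-identical copies exist. In FPKM, a level per length, a member's mean ranged from 1.04 to 93.9 in SD40 with a median of 7.54, from 1.15 to 179 in SD20 with a median of 10.3, and from 0 to 28.0 in SD30 with a median of 1.53. All 100 members also lay above all controls in all 6 extreme libraries in FPKM (background 7.04% of 12545 genes), a separation they were chosen for in scaled counts.

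The last 2 members, AJAP15322 and AJAP17207, had lowest extreme values of 30.0 and 11.2 scaled counts over highest controls of 25.8 and 9.56. The first 2 genes left out, AJAP18904 and AJAP26632, had 154 and 20.4 over 134 and 17.7. The selection ratio was 1.36 at the median of the set, and both pairs of genes had 1.15 after rounding.

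The number of genes that met the selection depended on the scaling of the libraries and on single libraries. With size factors by the median of ratios 202 genes were higher and 258 lower at both extremes, with the trimmed mean of M-values (TMM) 233 and 233, with upper quartiles 195 and 261, and with library totals 872 and 19. Scaling to library totals moved the median log2 fold change of all genes to 0.60 in SD40 and 0.92 in SD20, against 0.11 and 0.07 with TMM. The members' medians were then 2.14 and 2.69. A change of scaling moves the members and all genes together, so the members' place above the median of all genes follows from the selection. Of the 100 members, 100 met the selection with TMM, 100 with upper quartiles and 98 with library totals. Without SD30 replicate 3 the number of genes that met the selection was 811, without SD30 replicate 2 it was 588, and without SD30 replicate 1 it was 372. Leaving out SD40 replicates 1, 2 and 3 in turn gave 307, 427 and 324 genes. For SD20 replicates 1, 2 and 3 the numbers were 317, 240 and 214. A rule over 8 libraries asks less of a gene.

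**Figure D5:**
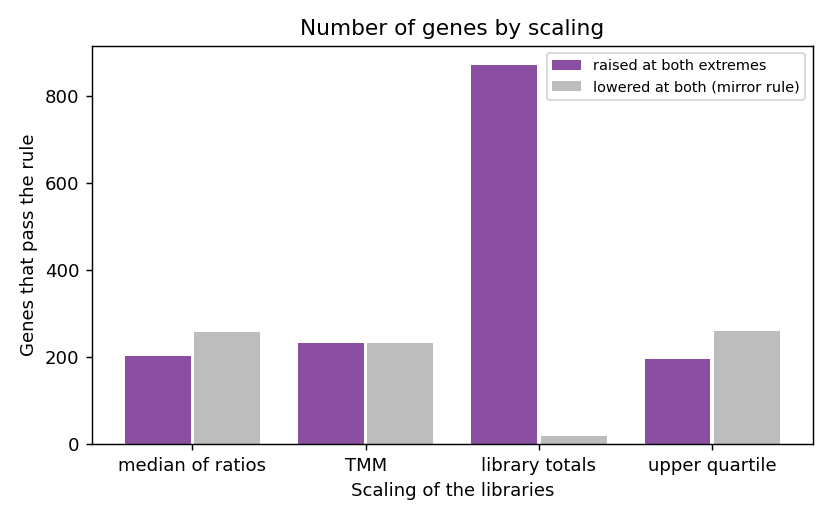
Number of genes that met the selection (higher at both extremes) and its mirror rule (lower at both extremes) under 4 ways to scale the libraries. With library totals the numbers are 872 and 19, and with TMM they are 233 and 233.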

How the data were processed

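Poly(A) RNA of 9 intestine pools was sequenced on a BGISEQ instrument, per the labels' protocols. The authors deposited, per gene model, estimated counts (expected_count, not normalized, per the file headers), FPKM and length. The submitters' processing notes list CASAVA 1.5. The aligner, the counter, the build and the gene annotation were not given in the sources used here. Genes with no line in a library were set to 0. Totals ran from 2834168 to 4060892 counts. Library pairs of a group differed by far more than sampling noise (chi-square per degree of freedom 31.5 to 186).

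Members were selected on unrounded scaled counts. For tests, estimated counts were rounded and fitted with edgeR 4.0.16 (R 4.3.3; filterByExpr, TMM, robust quasi-likelihood, 1 fit of all 9 libraries, group as the only term), with Benjamini-Hochberg adjustment over all genes and a threshold of 0.05. An SE is the log2 fold change over the square root of F. DESeq2 1.42.0 and limma 3.58.1 were alternatives. The fits were tested on simulated counts with these dispersions. Changes, up or down, were placed in a single group and only in genes above a minimum level. The members with the fewest reads are therefore not covered. All 3 tools recovered the direction of nearly all changes. edgeR called most changes of 32-fold, but of changes of 8-fold it called none in either comparison with SD30 and few in SD40 against SD20, so that an absence of calls does not show an absence of change. The 8-fold setting was run first and the 32-fold one was added after its outcome was seen. DESeq2 called most of the changes at both sizes, with more false calls than edgeR. Poisson and ratio intervals are exact, at 95%. The members and the rule for naming them were chosen with earlier results of these data known.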

Additional observations from a re-analysis of the deposited data

How the results depend on the processing

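The number of genes that met the selection was 202. It was 872 with library totals, 843 with FPKM in place of scaled counts and 47 with a minimum mean of 50. Without 1 library it was 214 to 811, at the top without SD30 replicate 3, and a rule over 8 libraries asks less of a gene. The 100 first genes held 35 of the members with library totals, 31 with FPKM, 63 with a minimum mean of 5, 17 of 47 with a minimum of 50, and 23 to 87 without 1 library. The members' median log2 fold changes were positive against SD30 in every alternative fit, which follows from the selection and supports nothing. For SD20 it was 1.91, 2.69 with library totals, 2.80 with limma on log2(FPKM + 0.1) and 1.61 to 2.10 without 1 library. For SD40 it was 1.67, 2.14 and 2.26 in the same fits and 1.48 to 1.77. For SD40 against SD20 it was -0.05, -0.42 with library totals, -0.40 with limma on log2(FPKM + 1), -0.46 with log2(FPKM + 0.1) and -0.22 to 0.10 without 1 library. Members called were 0 in all 3 comparisons in every edgeR and limma fit, and DESeq2 called 19 in SD20 against SD30, 1 in SD40 against SD30 and 0 in SD40 against SD20. The correlation of the members' deviations was 0.148, 0.431 with library totals and 0.118 to 0.172 without 1 library. No value over all genes is given for library totals, so 0.431 is not read as a closer likeness within the set. The cause of the correlation was not tested. The replicate numbers are not said to pair libraries, and deviations of same-numbered libraries correlated at -0.0909 to 0.175. With the replicate number as a block 0 members were called in each comparison, and the medians were 1.97 for SD20 against SD30, 1.73 for SD40 against SD30 and -0.07 for SD40 against SD20. The median length was 1174.5 bases, 1161 over members with whole counts and 1155 over the first 50. The bound for the member without control reads, and the ratios of means without 1 library for members with at most 3 control reads, were alternatives added after seeing the data. In the control libraries a member had a median of 3 to 11.3 reads.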
